A study of Mus musculus with 5 samples.

Results

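Antioxidant enzymes of the neonatal mouse heart were examined across spatial transcriptomes as 10 genes: the superoxide dismutases Sod1, Sod2 and Sod3, catalase (Cat), the glutathione peroxidases Gpx1, Gpx3 and Gpx4, and the peroxiredoxin group Prdx1, Srxn1 and Txnrd1. They were chosen by symbol, and all 10 were found among the 13708 genes that the 5 expression tables share. All hearts came from wild-type C57BL/6 mice operated on postnatal day 1. Myocardial infarction (MI) was made by tying off the left anterior descending coronary artery, and sham animals were operated on without the ligation. Transverse sections lay 200 µm under the ligature, or at the equivalent level of sham hearts, and were placed on Visium slides, on which a grid of barcoded spots captures RNA and each spot can hold several cells. There was 1 section for sham day 3, 1 for MI day 3 and 1 for sham day 7, and there were 2 sections for MI day 7. Each section came from a different heart. The first 3 groups therefore have no replicate error. The p-values measure the spread between sections together with a spread estimated over all genes.

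Superoxide dismutases turn superoxide into hydrogen peroxide, in the cytosol (Sod1), in the mitochondrial matrix (Sod2) and outside the cell (Sod3). Catalase, the glutathione peroxidases and the peroxiredoxins then remove the peroxide, with glutathione or thioredoxin as the usual source of electrons, and Gpx4 acts on lipid peroxides in membranes. Many of these genes hold antioxidant response elements, the DNA sites read by CNC factors such as Nrf1 (Nfe2l1) and Nrf2 (Nfe2l2), and the study asked how such a stress-responsive factor serves the regenerating heart.

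The 5 sections held 3364 spots, from 376 in MI day 3 to 960 in sham day 7. The median raw UMI count per spot ran from 20843 in sham day 3 to 53940 in MI day 7 replicate 1. In all, 22 spots had fewer than 1000 raw UMIs. Spot barcodes come from a common slide design, and 3 of the 1948 distinct barcodes were listed in all 5 sections. MI day 7 replicate 1 stood apart, with 24.7% of its values in mitochondrial transcripts against 13.8% to 15.8% in the other sections. Summed CPM of 7 cardiomyocyte markers lay between 37148 and 44990 in every section, and that of 8 macrophage markers between 119 and 992. Each spot carried 11 scores that the study had transferred from single-nucleus data and that sum to 1. A spot was assigned here to the class with its highest score. The classes used were CM1 and CM4 (cardiomyocyte states, CM4 being the immature state that the study follows), FB (fibroblast) and Macrophage. Spots were scaled to CPM, the share of a spot's values multiplied up to a common total, over the shared genes and averaged per section.

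Positions are from the GRCm38 annotation (GENCODE vM21), and each row of the tables stands for a whole gene. The dismutases are at chr16:90220754-90226329 (Sod1), chr17:13006846-13040063 (Sod2) and chr5:52363791-52371418 (Sod3), all on the plus strand. Cat is on the minus strand at chr2:103453849-103485160. The peroxidases are at chr9:108338903-108340343 (Gpx1), chr11:54902453-54910377 (Gpx3) and chr10:80047166-80056439 (Gpx4). The peroxiredoxin group is at chr4:116685544-116700822 (Prdx1), chr2:152105516-152111376 (Srxn1) and chr10:82833951-82897712 (Txnrd1). Sod1 overlaps Scaf4 on the opposite strand, and Txnrd1 overlaps Eid3 on the same strand. How reads in these overlaps were assigned is not given in the sources used here.

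The promoters of Prdx1, a peroxiredoxin, and Srxn1, the sulfiredoxin that repairs over-oxidised peroxiredoxins, are shown because this enzyme and its repair partner both had high levels in the Macrophage-dominant spots of the MI day 3 section described below. RefSeq promoters of GRCm38.p6 were searched on both strands for TGACNNNGC, the core of the antioxidant response element, and for TGAGTCA, a CNC and AP-1 type site. The search window ran from 250 bases before to 50 bases after the transcript start. The letters below run 5′ to 3′ up to the base before the first annotated start, on the plus strand, at chr4:116685349-116685543 for Prdx1 and chr2:152105274-152105515 for Srxn1, with matches in capitals.
Prdx1: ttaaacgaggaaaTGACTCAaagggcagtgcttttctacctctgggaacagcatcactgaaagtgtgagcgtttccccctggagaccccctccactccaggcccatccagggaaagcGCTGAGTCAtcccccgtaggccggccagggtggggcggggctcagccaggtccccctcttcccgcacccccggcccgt
Srxn1: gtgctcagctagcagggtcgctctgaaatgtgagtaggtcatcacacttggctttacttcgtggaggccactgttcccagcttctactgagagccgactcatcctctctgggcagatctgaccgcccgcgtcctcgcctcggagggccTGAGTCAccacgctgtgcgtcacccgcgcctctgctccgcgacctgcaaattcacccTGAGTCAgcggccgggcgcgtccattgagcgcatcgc
The Prdx1 stretch holds TGAGTCA once on each strand, and the match nearer the gene overlaps an antioxidant response element core on the opposite strand, together GCTGAGTCA. The Srxn1 stretch holds TGAGTCA in 2 places, and its only core match lies past the start and is not printed. Of all 32851 promoters in the table, 12.4% held the core, 5.20% held TGAGTCA and 0.947% held both. Promoters were given for 9 of the 10 members (not Sod3), and 4 of these held a core in at least 1 promoter (Sod1, Prdx1, Srxn1 and Txnrd1), while 2 held TGAGTCA (Prdx1 and Srxn1). Counted in the same way per gene, 14.0% of 27025 genes held the core and 5.95% held TGAGTCA in at least 1 promoter. These matches are letters in a window and no measurement of binding.

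Over whole sections, none of these genes passed the test between MI and sham hearts, and Sod3, the extracellular dismutase, had the lowest p. Sod3 averaged 5.47 CPM in sham day 3, 12.97 in MI day 3, 10.1 in sham day 7, and 15.7 and 18.0 in the MI day 7 replicates. All 3 MI sections lay above both sham sections, a pattern held by 1 of 10 members and by 6.84% of genes, although the sham day 3 value rests on 60 UMIs (exact Poisson 95% interval 45.8 to 77.2, counting error only). With day as a covariate in limma, Sod3 was higher in MI by 0.86 (SE 0.16) on the log2(CPM + 1) scale, with an unadjusted p of 0.00107 and an adjusted p of 0.375. It thus missed the threshold of 0.05. None of the 10 members passed, where 0.00773% of the 12931 genes tested did (1 gene), and 1048 genes and 1 member had an unadjusted p under 0.05. Xist, the X-inactivation transcript, was at 39.0 CPM in sham day 3 and 48.5 CPM in MI day 7 replicate 1 and was not listed in the other 3 tables, in which 4 Y-linked genes summed to between 115 and 128 CPM. With the sex of the animal, read from that Xist level, as a further covariate, Sod3 (0.83, adjusted p 0.0197) and Gpx3 (0.60, adjusted p 0.0182) passed in a fit with 1 residual degree of freedom, where 277 genes (2.14%) did. Without the sham day 7 section, which leaves sham day 3 alone on the sham side, both passed too (1.11 and 1.43, adjusted p 0.0206 and 0.0155), as did 365 genes (2.84%). Without either day 3 section, Gpx3 was at 0.17 (adjusted p 0.9998 each time), so its value across days rests on day 3, and Sod3 was at 0.68 (adjusted p 0.520 and 0.450). Fibroblast markers, 6 genes summed, were at 3448 and 3843 CPM in sham and 4867, 4571 and 6233 CPM in MI sections, so they moved with Sod3. Summed macrophage markers were at 992, 192 and 286 CPM in MI sections against 119 and 131 CPM in the sham ones. Blood markers, at 11386, 8567 and 10747 CPM against 4412 and 6901 CPM, also lay higher in every MI section, and endothelial markers lay lower, at 1750, 1717 and 1775 CPM against 2013 and 2008 CPM. The part of these cell types in the Sod3 value was not tested. In spots of mixed cells, a change in the number of cells of a type and in RNA per cell cannot be told apart.

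Gpx3, the secreted glutathione peroxidase, showed the widest gap at day 3 and little of it at day 7. Its levels were 124 CPM in sham day 3 and 336 CPM in MI day 3, a ratio of 2.71. At day 7 it was at 123 CPM in sham and at 109 and 176 CPM in the MI replicates, which lie on either side of the sham value. The cytosolic Gpx1 was also highest in MI day 3 and lowest in MI day 7 replicate 1, with 258 CPM in sham day 3, 399 CPM in MI day 3, 274 CPM in sham day 7, and 184 and 311 CPM in MI day 7. The spread of the MI day 7 pair, 247 ± 89.9 CPM (SD, n = 2) for Gpx1 and 143 ± 47.8 CPM for Gpx3, spans the sham values. With a log2 ratio of at least 0.5 taken as a step at day 3, 3 members were higher in MI (Gpx3 at 1.43, Sod3 at 1.11 and Gpx1 at 0.63), where 10.8% of genes were, and 0 were lower, where 4.07% of genes were. One section stood for each group at day 3, so these ratios have no test. The sham day 3 table holds raw counts and the MI day 3 table corrected ones, so at day 3 the kind of table and the operation cannot be told apart, which bears on every comparison of levels between sham day 3 and another section. By the Xist and Y-linked levels above, the sham day 3 heart was female and the MI day 3 heart male. Sex and operation thus cannot be told apart at day 3 either. The MI day 7 pair held 1 heart of each sex. The macrophage markers above had a like course, highest in MI day 3, and fibroblast markers were higher in MI too. Their part in the Gpx3 and Gpx1 levels was not tested. The change of the MI effect from day 3 to day 7 was fitted as an interaction, after the levels were seen. For Gpx3 it was −1.26 (SE 0.42, unadjusted p 0.00815, adjusted p 0.409 in limma). No member passed (55 genes, 0.425%, did), and in the other 9 members the interaction lay between −0.83 for Gpx1 and 0.23 for Cat.

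**Figure D1:**
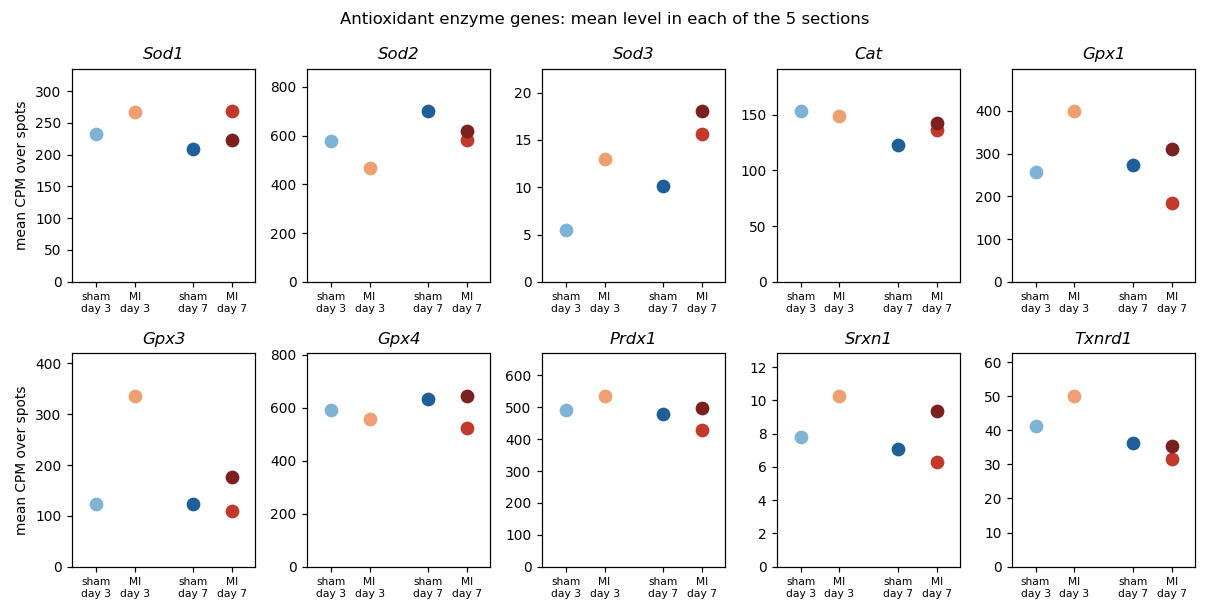
Mean level of each gene in each section, in CPM averaged over spots (vertical axis, from 0), by group (horizontal axis), with 1 point per section and both replicates of MI day 7 in 1 column. Sod3 sits higher in every MI section than in either sham section, and Gpx3 reaches 336 CPM in MI day 3 against 109 to 176 CPM in the other 4 sections.

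The mitochondrial Sod2 went the other way in level at each day. It was at 577 CPM in sham day 3, 466 in MI day 3, 700.5 in sham day 7, and 581 and 621 in MI day 7. MI lay below the sham section of its day each time, yet the groups overlapped across days. Sod1 was at 232 CPM in sham and 268 CPM in MI at day 3, and at 209 CPM in sham and 268 and 222 CPM in MI at day 7. Cat was at 153, 149, 123, 136 and 143 CPM and Gpx4 at 590, 559, 633, 521 and 643 CPM in sham day 3, MI day 3, sham day 7 and the MI day 7 replicates, a narrow span with overlapping groups. In the same order, Prdx1 was at 490, 535, 480, 429 and 499 CPM. Srxn1 was at 7.80, 10.3, 7.10, 6.30 and 9.37 CPM. Txnrd1, the cytosolic thioredoxin reductase, was at 41.4, 50.01, 36.1, 31.7 and 35.5 CPM. Prdx1, Srxn1 and Txnrd1 were each highest in MI day 3 and lowest in MI day 7 replicate 1. Mitochondrial transcripts took 24.7% of the values of that replicate, against 13.8% to 15.8% elsewhere, which lowers the CPM of other genes there. The low ranks of these genes and of Gpx1 there were not tested without those transcripts. In the fit across days, the 9 members other than Sod3 lay between −0.26 (Sod2) and 0.71 (Gpx3) in log2 difference, and the median over the members was 0.12 against −0.01 over all genes. At day 7 alone, none of the 10 members passed (0.232% of genes did, and 530 genes and 1 member had an unadjusted p under 0.05). Sod3 had the lowest p there, with a difference of 0.68 (SE 0.22, unadjusted p 0.00700, adjusted p 0.526). That fit has 1 residual degree of freedom, from the MI day 7 pair, and a prior spread over all genes worth 16.4 degrees of freedom.

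Between days, none of the 10 members passed either, where 0.595% of genes did. Sod3 (0.54, SE 0.16), Sod2 (0.33, SE 0.12) and Txnrd1 (−0.40, SE 0.14) had unadjusted p values of 0.0127, 0.0290 and 0.0219 in limma, and adjusted p values between 0.132 and 0.163. Of the 12931 genes tested, 3241 had an unadjusted p under 0.05 in that fit. The log2 levels of all genes were shifted by a median of −0.18 at day 7, and relative to that shift Sod2 and Sod3 lay further up and Txnrd1 less far down. Sod2, Cat and Txnrd1 did not overlap between days, but 44.7% of genes did not. With sex as a covariate, Gpx1 (−0.48), Gpx3 (−0.84), Txnrd1 (−0.43) and Sod3 (0.50) passed, with adjusted p values between 0.00158 and 0.0384 in limma, in a fit where 2279 genes (17.6%) passed. Gpx3 also passed without either sham section (−1.27 each time, adjusted p 0.0108 and 0.00951), where 745 and 758 genes did (5.81% and 5.89%). Without MI day 3, Gpx3 was at −0.013 (adjusted p 0.997) and Txnrd1 at −0.19 (adjusted p 0.925). The comparisons of operation and of day share all 5 sections.

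Macrophage-dominant spots of 2 injured hearts held high levels of several members. In MI day 3, where 20 spots were in this class, Gpx1 was at 1459 CPM against 298 CPM in the 211 CM1-dominant spots of the section. Prdx1 was at 974 CPM against 490 CPM, and its repair enzyme Srxn1 at 27.9 CPM against 6.95 CPM. Gpx3 was at 583 CPM against 208 CPM, Sod3 at 41.3 CPM against 6.10 CPM and Txnrd1 at 80.5 CPM against 43.3 CPM. Sod2 was at 212 CPM against 526 CPM. Hence 6 members had a log2 ratio of at least 0.5, where 38% of genes did, and Sod2 alone was at or below −0.5, where 18.4% of genes were. The 13 such spots of MI day 7 replicate 2 gave the same 6 members and Sod2, with Gpx1 at 735 CPM against 269 CPM, Prdx1 at 719 CPM against 481 CPM, Srxn1 at 15.8 CPM against 7.14 CPM and Sod2 at 409 CPM against 669 CPM. The Srxn1 level in these spots rests on a summed corrected count of 4 and that of Sod3 on 10. There 31.2% of genes were at or above 0.5 and 35.1% at or below −0.5. The 15 spots of that section whose highest score was the EPI score held Gpx1 at 694 CPM, Gpx3 at 315 CPM, Prdx1 at 671 CPM, Srxn1 at 27.3 CPM, Sod3 at 50.2 CPM and Sod2 at 341 CPM. Txnrd1 was at 27.5 CPM in these spots, lower than the 33.3 CPM of the CM1-dominant spots of the section. Srxn1 and Txnrd1 each rest on a summed corrected count of 8 in the EPI spots. No other section had 10 such spots.

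The same label meant something else in the other 3 sections. The macrophage markers (Lyz2, Cd68, C1qa, C1qb, Csf1r, Adgre1, Fcgr3 and Mrc1) summed to 9308 CPM in the Macrophage-dominant spots of MI day 3 and to 3648 CPM in those of MI day 7 replicate 2. They summed to 380, 413 and 608 CPM in the 26 spots of sham day 3, the 70 of sham day 7 and the 21 of MI day 7 replicate 1. The CM1-dominant spots of those sections held 70.9, 83.5 and 143 CPM. None of the 8 markers was at 0 in the Macrophage-dominant spots of any section. Cardiomyocyte markers summed to 18649 and 22408 CPM in the spots of MI day 3 and MI day 7 replicate 2, and to 42155, 44083 and 42980 CPM in the other 3, close to the 41240 to 47758 CPM of CM1-dominant spots. In these 3 sections the label was therefore a relative one, and 0 to 2 members per section reached a log2 ratio of 0.5, where 19.8%, 10.4% and 13.9% of genes did in sham day 3, sham day 7 and MI day 7 replicate 1. Txnrd1 was among them in sham day 3, at 58.9 CPM against 33.5 CPM. Srxn1 was lower in sham day 7, at 3.10 against 6.17 CPM, a log2 ratio of −0.81 on a summed corrected count of 5. There 960 of 12931 genes were at or below −0.5. Fibroblast markers were also high in the Macrophage-dominant spots of MI day 3 (13879 CPM) and MI day 7 replicate 2 (22257 CPM), against 2998 and 3537 CPM in the CM1-dominant spots there. Blood markers were at 4772 CPM in the Macrophage-dominant against 11049 CPM in the CM1-dominant spots of MI day 3. In MI day 7 replicate 2 they were at 19431 against 9944 CPM. Neutrophil markers were at 67.8 against 54.9 CPM and at 317 against 21.8 CPM in these 2 sections. The part of these cells in the levels of Sod3, Gpx3, Gpx1 and Prdx1 was not tested.

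Over all 5 sections, with the section as a block, none of the 10 members passed between Macrophage-dominant and CM1-dominant spots, where 0.173% of 13321 genes did and 1981 genes had an unadjusted p under 0.05. Txnrd1 (0.70, SE 0.17), Gpx3 (0.75, SE 0.21), Gpx1 (0.83, SE 0.30) and Prdx1 (0.37, SE 0.17) had unadjusted p values between 0.00230 and 0.0489 in limma and adjusted p values between 0.159 and 0.335. Sod3 was at 0.87 and Sod2 at −0.42, both with a wide spread between sections. The median over the members was 0.47 against 0.05 over all genes. Since the scores were made from the same expression values, this and the following class comparisons describe how the genes follow the label. The difference between MI and sham in this contrast was fitted after the class levels were seen. The step over CM1 was higher in MI for Sod3 (1.80, SE 0.71), Srxn1 (1.61, SE 0.71), Gpx1 (1.23, SE 0.47) and Prdx1 (0.65, SE 0.28). Unadjusted p values lay between 0.0248 and 0.0443 in limma, with an adjusted p of 0.868. Here 0 of the 10 members and 0% of genes passed, and 579 genes had an unadjusted p under 0.05. In sham day 3 and day 7 the step was −0.39 and −0.03 for Sod3, −0.004 and −0.81 for Srxn1, 0.12 and 0.05 for Gpx1, and −0.06 and 0.02 for Prdx1. The sham levels in Macrophage-dominant spots rest on summed values of 2 and 10 for Sod3 and of 4 and 5 for Srxn1. Without MI day 7 replicate 1, the MI section whose Macrophage-dominant spots held few macrophage transcripts, 371 genes (2.79%) and 3 members passed in limma: Gpx1 (1.78, adjusted p 0.0174), Gpx3 (1.14, adjusted p 0.0251) and Sod2 (−0.99, adjusted p 0.0495).

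**Figure D2:**
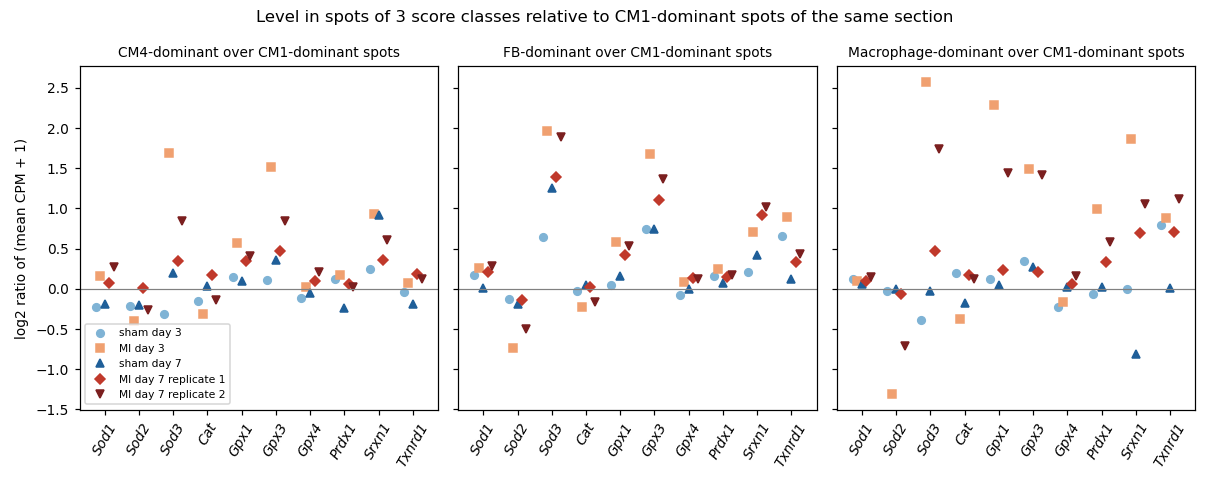
Log2 ratio of (mean CPM + 1) in CM4-, FB- and Macrophage-dominant spots over the CM1-dominant spots of the same section (vertical axis), by gene (horizontal axis), with 1 symbol per section. In the Macrophage panel, MI day 3 and MI day 7 replicate 2 stand above the other sections for Sod3, Gpx1, Gpx3 and Prdx1 and below them for Sod2.

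These levels fell off with distance. In MI day 3, Gpx1 averaged 1459 CPM in Macrophage-dominant spots, 506 CPM in spots of the ring touching them, 395 CPM in the ring after that and 318 CPM from the third ring on. Prdx1 went from 974 CPM to 553, 511 and 506 CPM, so most of its difference lay within the labelled spots. Gpx3 stayed at 583, 625 and 526 CPM over the first 3 positions before 271 CPM, a wider zone. Sod2 ran the other way, with 212, 351, 423 and 498 CPM. Macrophage markers dropped from 9308 CPM to 1998, 858 and 344 CPM over the same positions. In MI day 7 replicate 2 the order held for Gpx1, at 735, 461, 353 and 289 CPM, and for Sod2, at 409, 499, 551 and 639 CPM. Gpx3 fell at every step there, at 350, 286, 214 and 162 CPM. Srxn1, at 15.8, 19.98, 11.5 and 8.36 CPM, and Sod3, at 40.4, 43.8, 24.4 and 15.3 CPM, were highest in the first ring there. In MI day 7 replicate 1, Gpx1 lay between 169 and 191 CPM at every distance. These are descriptions of single sections.

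**Figure D3:**
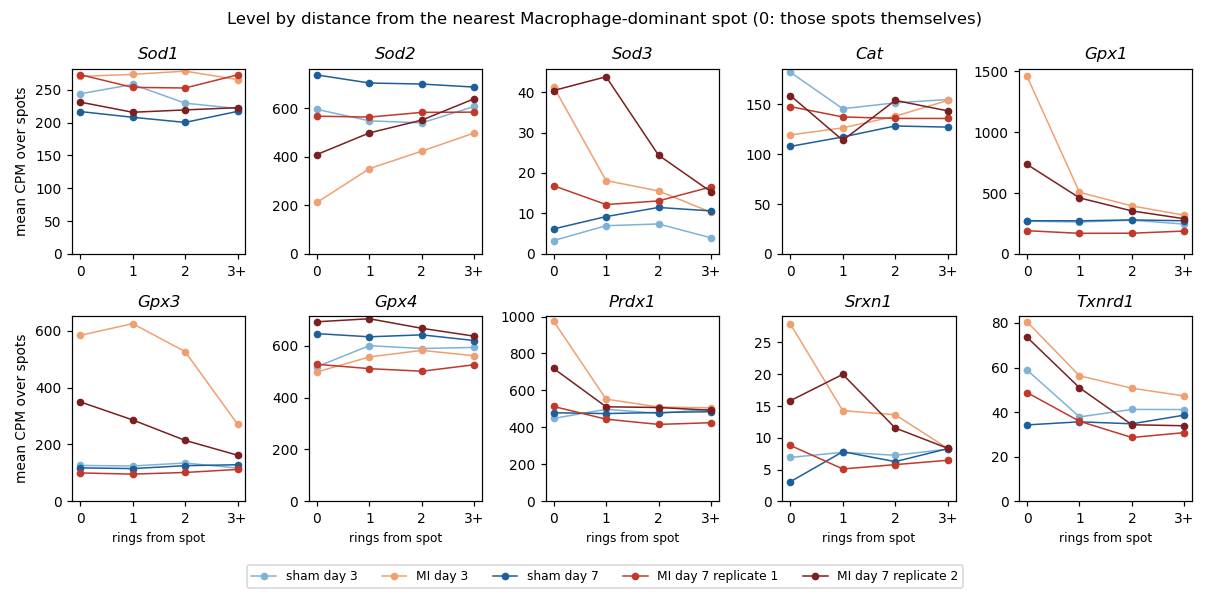
Mean CPM of each gene (vertical axis, from 0) in Macrophage-dominant spots (0) and in spots 1, 2 or at least 3 rings away (horizontal axis), with 1 line per section. Gpx1 and Prdx1 drop steeply and Sod2 climbs with distance in MI day 3 and MI day 7 replicate 2, while the lines of the other 3 sections are nearly flat for Gpx1 and Sod2.

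**Figure D4:**
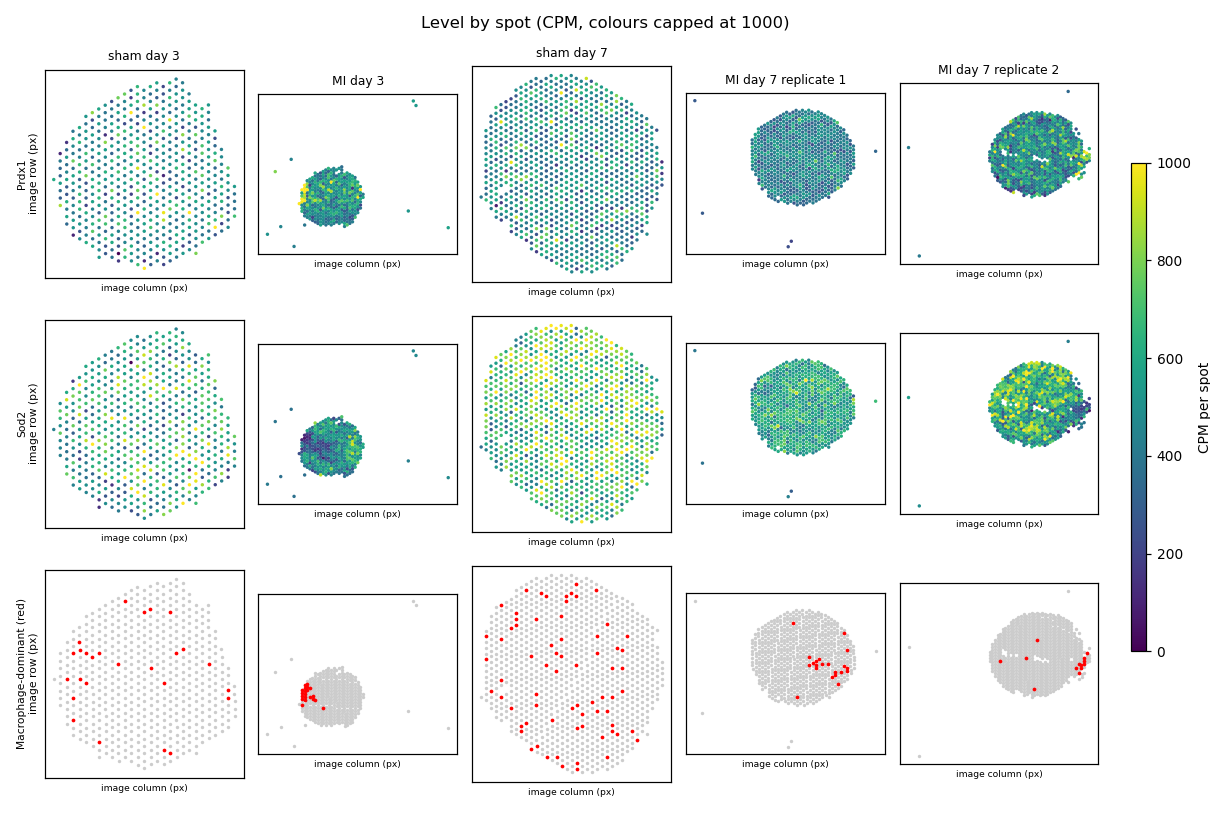
Spots at their place on the tissue image (axes in image pixels), coloured by the level of Prdx1 (top) and Sod2 (middle) in CPM, with colours capped at 1000, and Macrophage-dominant spots in red (bottom). In MI day 3 and MI day 7 replicate 2 the red spots cluster at 1 edge where Prdx1 is high and Sod2 low, and in both sham sections they are scattered.

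CM4-dominant spots held more Gpx3 than CM1-dominant spots. Gpx3 was at 107 CPM in CM4-dominant and 99.3 CPM in CM1-dominant spots of sham day 3, and at 593 and 208 CPM in MI day 3. It was at 125 and 97.2 CPM in sham day 7, at 120 and 86.2 CPM in MI day 7 replicate 1, and at 236 and 131 CPM in replicate 2. It was thus higher in CM4-dominant spots in 5 of 5 sections, by 0.66 (SE 0.13, adjusted p 0.0111 in limma). It was the 1 member of 10 that rose, where 1.09% of 13284 genes rose and 0.0602% fell. Without MI day 7 replicate 2 its adjusted p was 0.0515. Gpx1 was also higher in 5 of 5 sections, by 0.31 (SE 0.08, adjusted p 0.0760). Srxn1 (0.61, SE 0.20), Sod3 (0.55, SE 0.24) and Sod2 (−0.21, SE 0.08) had unadjusted p values between 0.00690 and 0.0300 and adjusted p values between 0.189 and 0.358. Without MI day 3, Sod3 was at 0.27 (adjusted p 0.888). The other 5 members lay between −0.08 and 0.03, against a median of 0.06 over all genes. Fibroblast markers were higher in the CM4-dominant than in the CM1-dominant spots of all 5 sections, with 6910 against 2998 CPM in MI day 3 and 3651 against 2520 CPM in sham day 7. Macrophage markers were also higher in all 5, with 1078 against 311 CPM in MI day 3, as were mural markers, with 1280 against 660 CPM in MI day 3 and 836 against 582 CPM in MI day 7 replicate 1. Cardiomyocyte markers were lower in all 5, with 38932 against 46359 CPM in sham day 3 and 39139 against 46018 CPM in MI day 7 replicate 2. The part of these cells in the Gpx3 value was not tested.

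The step from CM1 to CM4 was larger in MI than in sham hearts for many genes, with an all-gene median of 0.28, so a positive value has to be read against that. Gpx3 had the lowest p, with a difference of 0.71 (SE 0.20, unadjusted p 0.00195, adjusted p 0.0674), and Sod3 (1.01, SE 0.40), Sod1 (0.38, SE 0.13) and Gpx1 (0.32, SE 0.13) had adjusted p values between 0.116 and 0.171 in limma. No member passed, where 1.73% of genes did. Without MI day 7 replicate 1, Gpx3 passed (0.94, adjusted p 0.00156), as did 258 genes (1.95%). Median-of-ratios scaling brought the all-gene median to 0.02. Markers of other cells took steps that varied between sections. Blood markers were at 8597 and 19948 CPM in CM4-dominant against 3837 and 6394 CPM in CM1-dominant spots of sham day 3 and day 7, but at 6538 against 11049 CPM in MI day 3, 9640 against 8623 CPM in MI day 7 replicate 1 and 10824 against 9944 CPM in replicate 2. Macrophage markers were at 123 against 70.9 CPM and 114 against 83.5 CPM in sham, and at 1078 against 311 CPM, 179 against 143 CPM and 230 against 107 CPM in MI. Mural markers were at 658 against 549 CPM and 721 against 619 CPM in sham, and at 1280 against 660 CPM, 836 against 582 CPM and 1042 against 830 CPM in MI. The part of these cells in the interaction was not tested. Within CM1-dominant spots alone, MI and sham differed in Sod3 by 0.60 (SE 0.20, unadjusted p 0.00908) and in Gpx3 by 0.53 (SE 0.21, unadjusted p 0.0253), with adjusted p values of 0.350 and 0.545. None of the 10 members passed there, where 0.251% of 12748 genes did. Sod3 in these spots was at 4.62 and 6.31 CPM in sham day 3 and day 7, and at 6.10, 11.8 and 11.4 CPM in MI day 3 and the MI day 7 replicates. In the same spots macrophage markers were at 70.9 and 83.5 CPM in sham and at 311, 143 and 107 CPM in MI, and fibroblast markers at 2206 and 2520 CPM in sham and at 2998, 3087 and 3537 CPM in MI. Blood markers there were at 3837 and 6394 CPM in sham and higher, at 11049, 8623 and 9944 CPM, in MI. Cardiomyocyte markers were lower in every MI section (41240, 44142 and 46018 CPM against 46359 and 47758 CPM), as were endothelial markers (1959, 1665 and 1820 CPM against 2071 and 2026 CPM). Their part in the Sod3 and Gpx3 values was not tested.

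FB-dominant spots carried more of the extracellular enzymes than CM1-dominant spots. Sod3 was at 7.77 CPM in FB-dominant spots against 4.62 in CM1-dominant spots of sham day 3, at 26.7 against 6.10 in MI day 3, at 16.5 against 6.31 in sham day 7, and at 32.7 against 11.8 and 45.0 against 11.4 in MI day 7. It rose by 1.43 (SE 0.18, adjusted p 3.85e-05 in limma), higher in 5 of 5 sections. Some other classes held more Sod3 than FB-dominant spots. It was at 9.54 CPM in endocardial (EndoEC) spots of sham day 3 and 41.3 CPM in Macrophage-dominant spots of MI day 3. Pericyte/SMC spots of sham day 7 were at 18.6 CPM and EPI spots of MI day 7 replicate 2 at 50.2 CPM. In MI day 7 replicate 1 FB-dominant spots were highest. Gpx3, the other secreted enzyme, rose by 1.13 (SE 0.11, adjusted p 5.03e-06), from 669 against 208 CPM in MI day 3 to 164 against 97.2 CPM in sham day 7. Srxn1 (0.65), Txnrd1 (0.49) and Gpx1 (0.35) rose and Sod2 fell by 0.34 on the log2 scale, with adjusted p values between 0.00448 and 0.0145. Markers of other cell types moved too. Macrophage markers were higher in FB-dominant than in CM1-dominant spots of all 5 sections (1817 against 311 CPM in MI day 3, 159 against 83.5 CPM in sham day 7), as were mural markers (1263 against 660 CPM and 1215 against 619 CPM), and cardiomyocyte markers were lower in all 5 (27420 against 41240 CPM and 41168 against 47758 CPM). Endocardial markers were also higher in all 5 (67.9 against 21.4 CPM in MI day 3, 40.5 against 8.25 CPM in sham day 7) and endothelial markers lower in all 5 (1548 against 1959 CPM and 1873 against 2026 CPM). Their part in these values was not tested. Thus 5 of 10 members rose, where 23.5% of 13403 genes rose, and 1 fell, where 3.42% fell. The all-gene median was 0.18. Under median-of-ratios scaling, which brought that median to −0.02, Sod3 and Gpx3 kept their calls, while Gpx1 (0.13, adjusted p 0.270), Srxn1 (0.46, adjusted p 0.0606) and Txnrd1 (0.27, adjusted p 0.0884) lost theirs and Cat passed (−0.28, adjusted p 0.0116). Sod2 lost its call without MI day 7 replicate 2 (adjusted p 0.0729), and Srxn1 without either MI day 7 section (0.0688 and 0.0611). The step from CM1 to FB did not differ between MI and sham at the threshold for any of the 10 members (0.0821% of genes passed). Gpx3 (0.64, SE 0.16), Gpx1 (0.41, SE 0.13) and Sod3 (0.80, SE 0.31) had adjusted p values between 0.190 and 0.5003 there. Without MI day 7 replicate 1, Gpx3 passed in that interaction (0.78, adjusted p 0.0247 in limma), where 129 genes (0.967%) did.

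Across single spots, the same axis appeared as rank correlations with the scores. Spearman's rho is given per section over its 376 to 960 spots as a description, since spots of a section share their library, their neighbours and the values from which the scores were made. Sod2 was positively related to the CM1 score in 5 of 5 sections (rho 0.0862 to 0.383), and 7 members were negatively related to it in 5 of 5, as were 36% of genes. Gpx3 had the most negative mean (−0.386), with −0.604 in MI day 3. With the Macrophage score, Gpx1 had a rho of 0.508 and Gpx3 of 0.457 in MI day 3, and Sod2 one of −0.433. In both sham sections rho with this score lay between −0.114 and 0.0879 for every member. Prdx1 (0.242) and Srxn1 (0.200) were lower in MI day 3, and Srxn1 and Sod3 were seen in only 28.2% and 32.4% of the spots there, which limits any rank measure of them.

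The relation to the CM4 score was negative in both sham and positive in all 3 MI sections for 5 members, and so it was for 22.4% of genes. Gpx3 had a rho of −0.117 and −0.0989 with the CM4 score in sham and of 0.588, 0.330 and 0.184 in MI. Gpx1 had −0.0639 and −0.0363 in sham and 0.324, 0.257 and 0.204 in MI. Sod1, Sod3 and Gpx4 were the others. Without CM1-dominant spots, 3 members had the pattern (Gpx1, Gpx3 and Gpx4), as did 7.51% of genes, while Sod1 (0.0297, −0.0231 and −0.0049 in MI) and Sod3 (−0.0296, −0.0539 and 0.0184 in MI) lost it. With the CM1 score, Gpx4 alone turned from positive in sham to negative in MI (3.68% of genes), and with the Macrophage score Srxn1 alone turned from negative to positive (6.83% of genes). Without CM1-dominant spots, Gpx3 and Srxn1 did so with the Macrophage score, as did 5.39% of genes. Summed macrophage markers turned in the same way, with a rho to the CM4 score of −0.104 and −0.0881 in sham and of 0.394, 0.165 and 0.140 in MI, and their part in the members' relations was not tested. With 3 sections against 2, an exact permutation test has too few splits to reach the threshold of 0.05, and none was run.

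**Figure D5:**
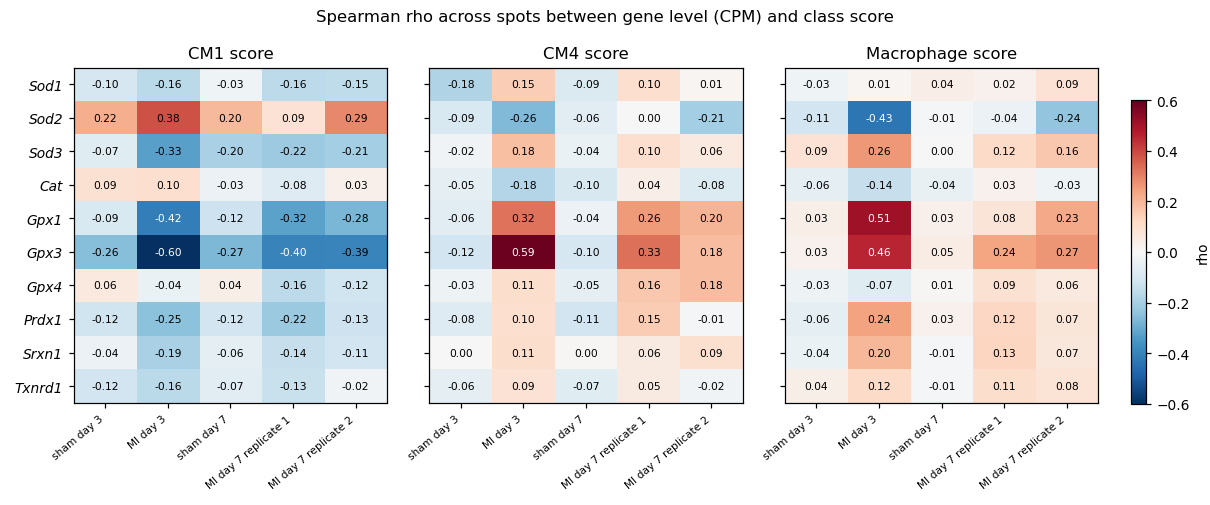
Spearman's rho across spots between the CPM of a gene (rows) and the CM1, CM4 or Macrophage score of the spot (panels), by section (columns), with red for positive and blue for negative values. Gpx3 turns from −0.117 and −0.0989 in sham to 0.588, 0.330 and 0.184 in MI with the CM4 score, and Sod2 is the member with positive values for the CM1 score in all 5 sections.

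Spatial clustering was measured by Moran's I, which is near 0 when neighbouring spots are unrelated and rises as neighbours become alike. For Gpx3 it was 0.0698 and 0.113 in sham and 0.255 to 0.729 in MI. For Gpx1 it was −0.0129 and 0.0130 in sham and 0.0852 to 0.561 in MI, and Sod2 reached 0.410 in MI day 3. No member was above 0.113 in a sham section, and for 6 of the 10 members every MI section lay above both sham sections, as it did for 23.9% of genes. The sections differ in depth, which moves this measure, and its part was not tested.

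The genes most like each member across spots separated the group further. Among 5023 genes with at least 20 CPM in every section, Sod2 was most like Fabp3 (mean rho 0.345 over 5 sections) and Mb (0.334), a fatty acid carrier and the oxygen store of heart muscle. Gpx3 was most like the matrix genes Postn (0.440) and Col1a2 (0.432), and Sod3 most like Mgp (0.205) and Fstl1 (0.202). Gpx1 was most like Vim (0.245) and the ferritin light chain Ftl1 (0.241). Cat was most like the calcium pump gene Atp2a2 (0.144) and Fhl2, Gpx4 like Gapdh (0.129) and Nppa, Prdx1 like Tubb5 (0.179) and Actg1, Sod1 like Tubb5 (0.121) and H19, Srxn1 like Anxa5 (0.115) and Emp3, and Txnrd1 like Mmp2 (0.1197) and Marcks. Among the members themselves, Gpx1 and Gpx3 had a rho of 0.416 in MI day 3 and of 0.0505 to 0.156 in the other sections. Sod2 was negatively related to both in 5 of 5 sections, with −0.410 to Gpx1 and −0.421 to Gpx3 in MI day 3.

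Of 71 further redox genes listed, 70 were in the shared set. Between MI and sham, across days or at day 7, none of the 70 passed, with a median of 0.06 across days against −0.01 for all genes. Between days 1 of the 70 passed, beside 0.595% of all genes. Txnip, the thioredoxin inhibitor, fell from day 3 to day 7 by 1.11 on the log2 scale (SE 0.13, adjusted p 0.0317 in limma), from 431 and 568 CPM in sham and MI day 3 to 197 CPM in sham and 238 and 292 CPM in MI day 7. In CM4-dominant spots, 2 of 70 rose over CM1-dominant spots, beside 1.09% of all genes, namely the microsomal glutathione transferase Mgst1 (1.03, SE 0.22, adjusted p 0.0174) and the endoplasmic reticulum peroxiredoxin Prdx4 (0.41, SE 0.10, adjusted p 0.0400). In FB-dominant spots, 25 of 70 rose and 5 fell, beside 23.5% and 3.42% of all genes and an all-gene median of 0.18. Under median-of-ratios scaling 10 rose and 14 fell, beside 10.8% and 11.3% of genes. Of the 18 thioredoxin and peroxiredoxin genes, 1 rose and 10 fell under that scaling, against 3 and 2 in the main fit. The risers of the main fit included 7 of 10 oxidant sources, such as Cybb (0.88), Ncf4 (1.11) and Cyba (0.37) of the phagocyte NADPH oxidase, and 5 of 10 of the group with other peroxidases, such as Gpx7 (1.10) and Gpx8 (0.75). Of the 9 regulators, 5 rose, among them Nfe2l1 (0.22) and Nfe2l2 (0.30). Under median-of-ratios scaling 0 of the 9 passed, with Nfe2l1 at 0.0029 and Nfe2l2 at 0.081 (adjusted p 0.981 and 0.542 in limma), and 3 of the 10 oxidant sources rose, with Ncf4 kept (0.94, adjusted p 0.0208) and Cybb (0.70, adjusted p 0.0872) and Cyba (0.16, adjusted p 0.368) lost. Macrophage markers were higher in these spots, as given above, and neutrophil markers (2 of 3 measured) were at 457 against 54.9 CPM in MI day 3. Neutrophil markers were at 38.9 against 15.3 CPM in sham day 3 and lower, at 5.94 against 9.50 CPM, in sham day 7. In the MI day 7 replicates they were at 7.29 against 6.34 CPM and 57.0 against 21.8 CPM. The part of both cell types in the oxidant sources was not tested. The 5 that fell were Nnt (−0.55), Txnrd2 (−0.41), Mgst3 (−0.36), Idh2 (−0.31) and Prdx3 (−0.27). In Macrophage-dominant spots none of the 70 passed, and the oxidant sources had a median of 1.35 against 0.05 for all genes.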

How the data were processed

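Visium spatial RNA-seq was measured in 5 transverse heart sections of neonatal mice. According to the labels and methods, the authors aligned reads with Space Ranger to mm10/GRCm38 and processed spots in Seurat. The deposited table of sham day 3 held raw UMI counts, as its spot totals equal the raw totals in the spot metadata in 100% of spots. The deposited tables of the other 4 sections held a score, the sctransform-corrected count, which the authors' tool adjusts to a common depth within a section. The authors also deposited 11 class fractions per spot (label-transfer scores that sum to 1), the raw UMI count and the position in the image.

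A count test could not be used, since the values of 4 tables are corrected. Each spot was scaled to CPM over the 13708 genes with a unique name in all 5 tables, spots were averaged per section (or per section and class, with at least 10 spots), and log2(mean CPM + 1) was fitted in limma 3.58.1 (R 4.3.3) with a mean-variance trend. Fold changes are on this scale, which understates changes of low genes. The limma test adds to the spread between sections a prior spread estimated over all genes. In each main fit this prior had more degrees of freedom (4.90 to 19.1) than the sections gave (1 to 4). Genes with at least 1 CPM in at least 2 columns were tested, and p-values are two-sided, adjusted by the Benjamini-Hochberg method over all of them, with a threshold of 0.05. MI against sham and day 7 against day 3 came from 1 additive model, MI against sham at day 7 from group means, classes from models with the section as a block, and differences between MI and sham from the within-section differences. The scripts were tested on simulated data. Rings and Moran's I used neighbours within 1.25 spot spacings. Spearman's rho was computed in Python 3.11.15 with scipy 1.17.1, and figures in matplotlib 3.10.9. Depth ranged from 11396022 to 37492530 raw UMIs per section. Depth behind single values is unknown in the corrected tables, so counting intervals are given for sham day 3 only, and they cover counting error alone.

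The members and the redox and marker lists were chosen with earlier results of these data known. All 10 members are named; of the other redox genes, those that passed over all genes are counted, with examples. The 2 genes most like a member have the highest mean rho over the sections. Alternatives were another scaling, leaving out mitochondrial and haemoglobin genes, summed values, a pseudocount of 5, no filter, a class score of at least 0.5, sex as a covariate, leaving out spots under 1000 raw UMIs, and leaving out each section. Leaving out spots under 1000 raw UMIs, marker sums in place of scores, the other scaling for the further redox genes, shares of score patterns over all genes, and the interactions for the Macrophage and FB classes and for day were added after the data were seen.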

Additional observations from a re-analysis of the deposited data

Results flagged for a closer look

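In 4 genes of the wider redox list, an effect differed between groups in limma by a test of the difference itself. The step from CM1-dominant to CM4-dominant spots was larger in MI than in sham hearts for the quinone reductase Nqo1 (1.58, SE 0.32, adjusted p 0.0140), the transcription factor Foxo3 (1.30, SE 0.28, adjusted p 0.0228) and the metallothionein Mt1 (0.62, SE 0.14, adjusted p 0.0273), beside an all-gene median of 0.28 and 230 genes that passed (1.73%). All 3 lost their calls under median-of-ratios scaling (Nqo1 1.31, Foxo3 1.03 and Mt1 0.34, adjusted p 0.0860, 0.170 and 0.408) and with mitochondrial and haemoglobin genes left out (1.41, 1.13 and 0.41, adjusted p 0.0893, 0.134 and 0.323), where 54 and 27 genes passed. Without MI day 7 replicate 2 none of the 3 passed (Nqo1 1.49, Foxo3 1.16 and Mt1 0.48, adjusted p between 0.112 and 0.196 in limma). Nqo1 also lost its call without sham day 3 (1.32) or MI day 3 (1.45, adjusted p 0.0626 in limma). Foxo3 lost its call without MI day 3 (1.35, adjusted p 0.0581 in limma) or sham day 7 (0.82). Mt1 lost its call without sham day 3 (0.67) or sham day 7 (0.58). For Cybb, the catalytic subunit of the phagocyte NADPH oxidase, MI minus sham was smaller at day 7 than at day 3 (−1.96, SE 0.36, adjusted p 0.0223). Cybb was at 31.7 CPM in MI day 3 and at 2.64 to 4.63 CPM in the other 4 sections. In that comparison 55 genes passed (0.425%), and under median-of-ratios scaling or with mitochondrial and haemoglobin genes left out 0 did, so that Cybb lost its call (−1.85 and −1.82, adjusted p 0.371 and 0.453). Macrophage markers were at 992 CPM in MI day 3 and at 119 to 286 CPM in the other 4 sections, and their part in the Cybb value was not tested.

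For 6 members, the rho between level and a score had 1 sign in both sham sections and the other sign in all 3 MI sections. With the CM4 score these were Gpx1 (at least 0.204 in MI, at most −0.0363 in sham), Gpx3 (at least 0.184 and at most −0.0989), Gpx4 (at least 0.106 and at most −0.0321), Sod3 (at least 0.0585 and at most −0.0233) and Sod1 (at least 0.0095 and at most −0.0854). With the CM1 score, Gpx4 was at most −0.0392 in MI and at least 0.0355 in sham. With the Macrophage score, Srxn1 was at least 0.0690 in MI and at most −0.0076 in sham. These differences between groups were not tested. The same pattern was held by 22.4% of genes with the CM4 score, 3.68% with the CM1 score and 6.83% with the Macrophage score. Without CM1-dominant spots, Sod1 and Sod3 lost it with the CM4 score and Gpx4 lost it with the CM1 score, and it was held by Gpx1, Gpx3 and Gpx4 with the CM4 score and by Srxn1 and Gpx3 with the Macrophage score (Gpx3 −0.0344 and −0.0375 in sham, and 0.413, 0.0383 and 0.272 in MI). Of all genes, 7.51% held it with the CM4 score and 5.39% with the Macrophage score in those spots.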

How the results depend on the processing

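No paired analysis was possible because, between hearts, 3 of the 4 groups have 1 section and share at most 1 replicate number with any other. The comparisons of classes are paired within sections. Over the 11 comparisons, the number of members that passed was kept under 108 of 124 alternatives. It was 2 in place of 0 across days and 4 in place of 0 between days with sex as a covariate (2.14% and 17.6% of genes passed there), and 1 in place of 0 for MI against sham within CM1-dominant spots (Gpx3, 0.44, adjusted p 0.0137 in limma, beside 3.55% of genes). It was 2 in place of 1 for CM4-dominant spots without mitochondrial and haemoglobin genes, where Gpx1 passed as well, beside 1.46% of genes, and 1 in place of 0 for the CM4 interaction with CPM of summed values (Gpx3, adjusted p 0.0483, beside 298 of 13261 genes). It was 4 in place of 6 for FB-dominant spots under median-of-ratios scaling, where 22.1% of genes passed. Leaving out each section gave 0 to 2 members across days, 0 to 1 between days, 0 to 2 for CM4-dominant spots, 4 to 6 for FB-dominant spots (6 with all sections), 0 to 1 for the CM4 interaction, 0 to 3 for the Macrophage interaction and 0 to 1 for the FB interaction. Why these calls depend on these choices was not tested, beyond the loss of sections and of degrees of freedom that they bring. Of the members with an unadjusted p under 0.05 or a call under some alternative, Sod1 (−0.033) and Prdx1 (−0.060) in FB-dominant spots changed sign under median-of-ratios scaling. Gpx1 between days lay between −0.74 and 0.088 as each section was left out, and changed sign without MI day 3. At day 7, leaving out 1 MI day 7 section gave values with no test, and leaving out the sham section gave none. In the comparisons where a member's difference was not named, 88 of 778 values changed sign, all between −0.29 and 0.27.

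The number of genes called over all genes tested moved more than that of members. It was 1 across days (0 to 365 over alternatives), 30 at day 7 (0 to 87), 77 between days (32 to 2279) and 153 for CM4-dominant spots (63 to 300). It was 23 for Macrophage-dominant spots (0 to 40), 3612 for FB-dominant spots (2165 to 3615) and 32 within CM1-dominant spots (14 to 453). For the interactions it was 230 (27 to 371) for CM4, 0 (0 to 371) for Macrophage, 11 (1 to 129) for FB and 55 (0 to 158) for day. The highest values came with sex as a covariate or with a section left out in most of these. Mean rho with the 3 scores moved by less than the spread between sections under 97 of 100 alternatives. The exceptions came from leaving out CM1-dominant spots: Sod1 (−0.0468) and Prdx1 (−0.0919) with the CM1 score and Srxn1 (−0.0121) with the CM4 score. The mean Moran's I of all 10 members moved by less than that spread with the second ring of neighbours. With a class score of at least 0.5, MI day 7 replicate 2 had fewer than 10 Macrophage-dominant spots and was left out of that comparison.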
